A study of Mus musculus with 8 samples.

Results

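The 10 genes described here encode proteoglycans of the extracellular matrix: the small leucine-rich proteoglycans decorin (*Dcn*), biglycan (*Bgn*), asporin (*Aspn*), lumican (*Lum*), fibromodulin (*Fmod*), osteoglycin (*Ogn*) and podocan (*Podn*), and the large proteoglycans versican (*Vcan*), aggrecan (*Acan*) and perlecan (*Hspg2*). They were chosen by gene symbol as members of a protein family, with no threshold on their values. All 10 were found among the 18990 genes of the deposited table, and all 10 were among the 13866 genes that were tested, those averaging 1 or more CPM (counts of a gene relative to the reads of its library). Small leucine-rich proteoglycans have a core of leucine-rich repeats, most carry chondroitin, dermatan or keratan sulfate chains, and several bind collagen fibrils and growth factors of the TGF-beta family. Versican and aggrecan bind hyaluronan and form large hydrated aggregates, and perlecan is a heparan sulfate proteoglycan of basement membranes. Fibroblasts are a major source of several of these proteins, and loss of the fibroblast programme accompanies reprogramming towards pluripotency.

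Total RNA was profiled in primary mouse embryonic fibroblasts (MEFs) of wild-type BL6 mice that were being reprogrammed at passage 2. Every culture carried the doxycycline-inducible STEMCCA cassette of *Oct4*, *Sox2*, *Klf4* and *c-Myc* (OSKM) with the rtTA activator, both delivered by lentivirus, and was grown with doxycycline, chiron, the TGF-beta inhibitor Alk5i, ascorbic acid and LIF. Before induction the cells received 40 nM of an siRNA pool against *Ncor1*, a nuclear receptor corepressor, or against *Oct4* (*Pou5f1*), and RNA was collected at day 3 or day 6. This gave 4 groups of 2 biological replicates: siNcor1 at day 3, siOct4 at day 3, siNcor1 at day 6 and siOct4 at day 6. Libraries of a non-targeting control were not analysed here, so each knockdown is compared with the other, and a change between days is not set against unperturbed reprogramming. Each culture is a mixture of cells at different stages, and fewer cells of a type and less RNA per cell cannot be told apart in it.

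The libraries held 7735742 to 16445192 reads on genes, and 3 reads corresponded to 0.174 to 0.380 CPM. The noncoding gene *Gm26917* took 15.5 to 29.1% of the reads, with the highest share in replicate 1 of siOct4 at day 6. *Ncor1* was 0.74 lower on the log2 scale in siNcor1 than in siOct4 at day 3 (adjusted p = 0.0139) and differed by 0.04 at day 6 (adjusted p = 0.815). *Pou5f1*, which the cassette also supplies, did not go with the label siOct4: it differed by −0.08 at day 3 (adjusted p = 0.941) and was 1.77 higher in the libraries with that label at day 6 (adjusted p = 1.09e-04). They are therefore called siOct4-labelled below, and every direction given for them rests on that label. The same holds for the label siNcor1 at day 6, where no difference of *Ncor1* was called. Silencing of either target before day 3 was not measured in these libraries. All 8 fibroblast markers examined were present in every library.

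Between day 3 and day 6 the shares of *Dcn* and *Lum* among these transcripts grew and those of *Bgn*, *Fmod* and *Ogn* shrank in both arms, with perlecan and biglycan at the top throughout. Scaled by the exon length of each gene (CPM per kb), *Hspg2* ranked first and *Bgn* second in all 4 groups. *Hspg2* had a mean of 155.9 CPM per kb in siNcor1 at day 3, 190.3 in siOct4-labelled cells at day 3, 127.1 in siNcor1 at day 6 and 74.1 in siOct4-labelled cells at day 6. *Bgn* had 105.2, 149.9, 77.7 and 41.3 CPM per kb in the same order of groups. The 2 libraries of *Hspg2* did not overlap with those of *Bgn* in any group. At day 3 *Vcan* and *Fmod* came next in both arms, *Vcan* with 29.1 and 36.5 CPM per kb and *Fmod* with 23.0 and 33.5. At day 6 the third and the fourth place were held by *Lum* (32.3 in siNcor1 and 22.2 in siOct4-labelled cells) and *Dcn* (27.1 and 19.2). The ranges of *Lum* and *Dcn* overlapped in the siOct4-labelled group at day 6 and not in siNcor1. *Podn*, *Aspn* and *Acan* stayed at or below 1.21 CPM per kb in every group.

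As a share of the summed CPM per kb of all 10 genes, *Dcn* and *Lum* together made up 2.21 and 3.82% in the 2 siNcor1 libraries of day 3 and 3.26 and 2.28% in the siOct4-labelled ones. At day 6 they made up 19.5 and 21.2% in siNcor1. They made up 16.1% in replicate 1 and 30.4% in replicate 2 of the siOct4-labelled group at day 6. The shares of day 6 lay above those of day 3 in both arms, and the 2 siOct4-labelled libraries of day 6 lay on either side of the siNcor1 ones. The sum itself was 356.8 and 308.4 CPM per kb in siNcor1 at day 3 and 389.4 and 473.1 in siOct4-labelled cells. It was 285.5 and 298.5 in siNcor1 at day 6 and 164.9 and 185.7 in siOct4-labelled cells, so the siOct4-labelled libraries moved from the highest sums at day 3 to the lowest at day 6.

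**Figure D1:**
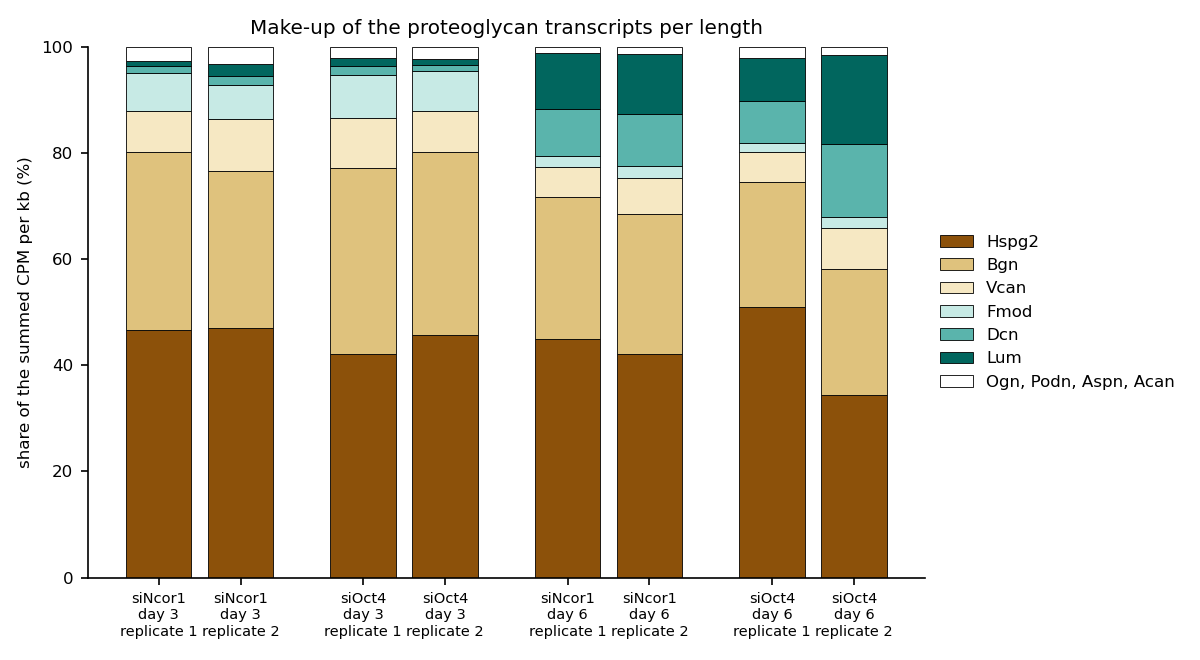
Share (%) of each gene in the summed CPM per kb of the 10 proteoglycan genes, with one stacked bar for each of the 8 libraries. *Hspg2* and *Bgn* fill most of every bar, and the *Dcn* and *Lum* segments grow from 2.21 to 3.82% at day 3 to between 16.1 and 30.4% at day 6.

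Knockdowns were compared with limma over all tested genes. A gene was called at an adjusted p under 0.05, and a difference is siOct4-labelled minus siNcor1 on the log2-cpm scale, on which the change of genes with few reads is understated. At day 3, 0 of the 10 genes were called in either direction, against 0.375% of all tested genes called higher and 0.692% called lower. At an unadjusted p under 0.05 there were 3 (*Bgn*, *Fmod* and *Aspn*, all with higher values in siOct4-labelled cells). Over all tested genes, 1460 of 13866 had an unadjusted p under 0.05 at day 3, in either direction. With voom on the recovered reads, 0 of the 10 genes were called as well. At day 6, 5 genes were lower in siOct4-labelled cells (*Bgn*, *Fmod*, *Ogn*, *Vcan* and *Hspg2*), against 18.6% of all tested genes, and 1 was higher (*Acan*), against 12.1%. The median difference over the 10 genes was 0.30 at day 3 and −0.64 at day 6, and over all tested genes −0.02 and −0.03. The change of this difference from day 3 to day 6, the interaction of knockdown and day, was negative and called for the same 5 genes, against 12.9% of all tested genes, and positive and called for *Acan*, against 7.77%. The comparisons share libraries: each library of day 6 enters a knockdown comparison, a day comparison and the interaction.

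Between day 3 and day 6, 2 of the 10 genes rose in siNcor1 (*Dcn* and *Lum*), against 13.8% of all tested genes, and 4 fell (*Fmod*, *Ogn*, *Vcan* and *Acan*), against 20.9%. In siOct4-labelled cells 3 rose (*Dcn*, *Lum* and *Acan*), against 22.2% of all tested genes, and 5 fell (*Bgn*, *Fmod*, *Ogn*, *Vcan* and *Hspg2*), against 30.5%. The median change over the 10 genes was −0.36 in siNcor1 and −1.14 in siOct4-labelled cells, and over all tested genes −0.07 and −0.08. With 2 libraries in each group, all p-values measure only the spread between replicates. That spread was estimated for each gene from all 4 groups together and moderated over all tested genes. It is therefore not particular to the groups compared. The replicates of siOct4 at day 6 differed most in their reads (chi-square per degree of freedom 18.7, against 8.44 to 9.43 in the other groups).

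The summed level of 8 fibroblast markers, among them the collagen genes *Col1a1*, *Col1a2* and *Col3a1*, moved in the same order of groups as *Bgn*. It was 6861 and 7072 CPM in siNcor1 at day 3, 9385 and 11120 CPM in siOct4-labelled cells at day 3, 4634 and 5024 CPM in siNcor1 at day 6, and 2560 and 2653 CPM in siOct4-labelled cells at day 6. At day 6 all 8 were lower in siOct4-labelled cells, against 18.6% of all tested genes, with a median difference of −0.84, and for all 8 the interaction was negative and called, against 12.9%. Between the days 4 of the 8 rose and 3 fell in siNcor1, against 13.8% and 20.9% of all tested genes, and 0 rose and 5 fell in siOct4-labelled cells, against 22.2% and 30.5%. Markers of epithelial cells, 6 of 6 in the table, summed to 53.7 and 55.4 CPM in siNcor1 at day 3, 15.4 and 17.9 CPM in siOct4-labelled cells at day 3, 683 and 647 CPM in siNcor1 at day 6 and 302 and 272 CPM in siOct4-labelled cells at day 6. Their sums were lower in siOct4-labelled cells at both days, with 4 of 6 called lower at day 3, against 0.692% of all tested genes, and 5 of 6 at day 6, against 18.6%. All 6 rose between the days in both arms. The part of these markers in the differences of the proteoglycan genes was not tested.

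**Figure D2:**
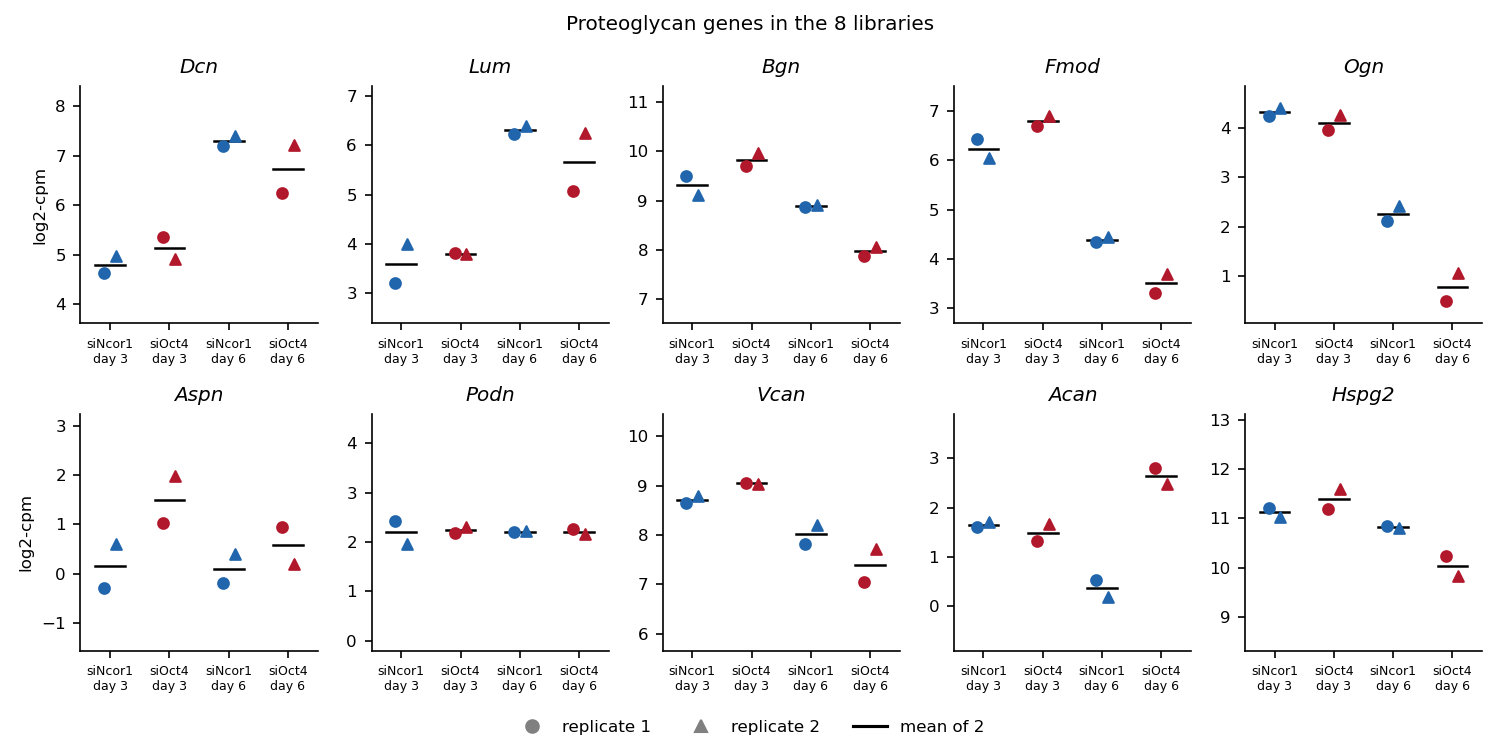
Level (log2-cpm) of each proteoglycan gene in the 8 libraries, siNcor1 in blue and siOct4-labelled in red, with a circle for replicate 1, a triangle for replicate 2 and a bar for the mean of 2; the vertical axes start at different levels and span the same number of log2 units. *Dcn* and *Lum* are higher at day 6 in both arms, *Fmod* and *Ogn* are lower, and *Acan* is highest in the siOct4-labelled libraries of day 6.

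Decorin and lumican rose together in both arms. *Dcn* (chromosome 10, 97479609 to 97518143, plus strand, GRCm38) encodes a class I member with a single glycosaminoglycan chain that binds collagen fibrils and TGF-beta. *Lum* (chromosome 10, 97565128 to 97572703, plus strand) encodes a class II member with keratan sulfate chains that is needed for corneal transparency. The genes are neighbours on the same strand with 47.0 kb between them. *Kera*, the keratocan gene 34.2 kb on the other side of *Lum*, had 0 to 5 reads per library and was not tested. The next gene of the cluster, *Epyc*, was not found in the deposited table.

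*Dcn* stood at 4.62 and 4.96 log2-cpm in siNcor1 at day 3, 5.36 and 4.92 in siOct4-labelled cells at day 3, 7.20 and 7.41 in siNcor1 at day 6, and 6.24 and 7.22 in siOct4-labelled cells at day 6. All 4 libraries of day 6 lay above all 4 of day 3. *Dcn* rose by 2.51 (SE 0.26, a 5.71-fold increase, adjusted p = 5.7e-05) in siNcor1 and by 1.59 (SE 0.26, 3.02-fold, adjusted p = 3.48e-04) in siOct4-labelled cells. *Lum* stood at 3.21 and 4.0 log2-cpm in siNcor1 at day 3, 3.81 and 3.80 in siOct4-labelled cells at day 3, 6.22 and 6.39 in siNcor1 at day 6, and 5.06 and 6.24 in siOct4-labelled cells at day 6. Here too the days did not overlap. *Lum* rose by 2.70 (SE 0.32, 6.51-fold, adjusted p = 1.29e-04) in siNcor1 and by 1.85 (SE 0.32, 3.60-fold, adjusted p = 5.12e-04) in siOct4-labelled cells. Both rises were called under all 20 alternative settings of each arm.

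Whether the knockdowns differed in *Dcn* and *Lum* at day 6 changed with the siOct4-labelled library left out. The difference was −0.57 for *Dcn* (SE 0.26, 95% CI −1.14 to −0.0032, adjusted p = 0.117) and −0.65 for *Lum* (SE 0.32, 95% CI −1.35 to 0.05, adjusted p = 0.143), and for both genes replicate 2 of siOct4 lay within the range of the siNcor1 libraries. Without replicate 2 of siOct4 at day 6 the difference was −1.06 for *Dcn* (adjusted p = 0.00153) and −1.24 for *Lum* (adjusted p = 0.00260). Without replicate 1 it was −0.08 for *Dcn* and −0.06 for *Lum*. At day 3 the difference was 0.35 for *Dcn* (95% CI −0.22 to 0.92) and 0.20 for *Lum* (95% CI −0.49 to 0.90), neither called. The interaction was −0.92 for *Dcn* (adjusted p = 0.0969) and −0.86 for *Lum* (adjusted p = 0.199), so a smaller rise in siOct4-labelled cells was not shown. Without replicate 2 of siOct4 at day 6 the interaction was −1.41 for *Dcn* (adjusted p = 0.00157) and −1.45 for *Lum* (adjusted p = 0.00594).

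Biglycan was among the most abundant of these transcripts and followed the opposite course. *Bgn* (chromosome X, 73483602 to 73495933, plus strand) encodes a class I member closely related to decorin, with a pair of chondroitin or dermatan sulfate chains. It stood at 9.51 and 9.11 log2-cpm in siNcor1 at day 3, 9.70 and 9.96 in siOct4-labelled cells at day 3, 8.87 and 8.91 in siNcor1 at day 6, and 7.89 and 8.06 in siOct4-labelled cells at day 6. The siOct4-labelled libraries were the highest at day 3 and the lowest at day 6, without overlap. The difference between knockdowns was 0.52 at day 3 (SE 0.16, 95% CI 0.18 to 0.86, adjusted p = 0.184) and −0.91 at day 6 (SE 0.16, 1.88-fold lower, adjusted p = 0.00183), and the change of that difference was −1.43 (SE 0.22, adjusted p = 0.00169). *Bgn* fell by 1.86 in siOct4-labelled cells between the days (3.62-fold, adjusted p = 3.6e-06). In siNcor1 the change was −0.42 (adjusted p = 0.0550), on the edge of the threshold: it was called under 7 of 20 alternatives, with adjusted p between 0.0196 and 0.383 over all of them.

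Fibromodulin and osteoglycin had the deepest falls of the 10 genes in both arms. *Fmod* (chromosome 1, 134037254 to 134048277, plus strand) encodes a class II member that regulates collagen fibril assembly in tendon. It stood at 6.43 and 6.04 log2-cpm in siNcor1 at day 3, 6.69 and 6.89 in siOct4-labelled cells at day 3, 4.34 and 4.45 in siNcor1 at day 6, and 3.32 and 3.70 in siOct4-labelled cells at day 6. As for *Bgn*, the siOct4-labelled libraries were above the siNcor1 ones at day 3 and below them at day 6. *Fmod* fell by 1.84 in siNcor1 (SE 0.17, 3.59-fold, adjusted p = 2.9e-05) and fell by 3.29 in siOct4-labelled cells (SE 0.17, 9.75-fold, adjusted p = 1.42e-07). The knockdown difference was 0.56 at day 3 (95% CI 0.19 to 0.93, adjusted p = 0.188) and −0.89 at day 6 (SE 0.17, 1.85-fold lower, adjusted p = 0.00314), and its change was −1.44 (SE 0.24, adjusted p = 0.00229). *Prelp*, a small leucine-rich proteoglycan gene 115.8 kb from *Fmod*, fell by 1.04 in siNcor1 and fell by 1.85 in siOct4-labelled cells and was 1.22 lower in siOct4-labelled cells at day 6 (adjusted p = 0.00137). *Optc*, the opticin gene 129.3 kb from *Fmod*, had 17 to 30 reads per library at day 3, 7 and 9 in siNcor1 at day 6 and 1 and 3 in siOct4-labelled cells at day 6.

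*Ogn* (chromosome 13, 49608046 to 49624501, plus strand) encodes a class III member, also called mimecan, found in bone and cornea. It stood at 4.24 and 4.41 log2-cpm in siNcor1 at day 3, 3.96 and 4.26 in siOct4-labelled cells at day 3, 2.12 and 2.42 in siNcor1 at day 6, and 0.49 and 1.06 in siOct4-labelled cells at day 6. These last values rest on 12 and 23 reads, against 51 and 62 in siNcor1 at day 6 and 150 to 365 at day 3. The groups of day 6 did not overlap, and those of day 3 did. *Ogn* fell by 2.06 in siNcor1 (SE 0.23, 4.17-fold, adjusted p = 1.0e-04) and fell by 3.33 in siOct4-labelled cells (SE 0.23, 10.1-fold, adjusted p = 9.6e-07). The difference between knockdowns was −0.22 at day 3 (95% CI −0.73 to 0.29, adjusted p = 0.867) and −1.49 at day 6 (2.82-fold lower, adjusted p = 0.00118), and its change was −1.27 (SE 0.33, adjusted p = 0.0206). The interaction of *Ogn* lost its call when any one of 4 libraries was left out, with adjusted p up to 0.0916 without replicate 2 of siNcor1 at day 6.

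Asporin and podocan were the small leucine-rich members with no call in any comparison. *Aspn* (chromosome 13, 49544443 to 49567565, plus strand), 40.5 kb from *Ogn*, encodes a class I member with a run of aspartate residues that binds TGF-beta and collagen. It had 9 to 30 reads per library, which gave −0.29 and 0.61 log2-cpm in siNcor1 at day 3, 1.02 and 1.98 in siOct4-labelled cells at day 3, −0.18 and 0.39 in siNcor1 at day 6, and 0.95 and 0.21 in siOct4-labelled cells at day 6. The groups were separate at day 3 and overlapped at day 6. The difference was 1.34 at day 3 (SE 0.46, 95% CI 0.33 to 2.34, adjusted p = 0.256) and 0.48 at day 6 (95% CI −0.53 to 1.48, adjusted p = 0.462). The change between days was −0.06 in siNcor1 (95% CI −1.06 to 0.95) and −0.92 in siOct4-labelled cells (95% CI −1.93 to 0.08, adjusted p = 0.113). Neither was called, and the wide intervals do not exclude changes of this size.

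*Podn* (chromosome 4, 108014791 to 108096445, minus strand) encodes a noncanonical class V member described as a regulator of smooth muscle cells. It lay within a narrow band, at 2.43 and 1.97 log2-cpm in siNcor1 at day 3, 2.18 and 2.31 in siOct4-labelled cells at day 3, 2.20 and 2.23 in siNcor1 at day 6, and 2.26 and 2.16 in siOct4-labelled cells at day 6. The ranges of all 4 groups overlapped. The difference at day 6 was −0.0041 (SE 0.23, 95% CI −0.51 to 0.51), and the direction of such small values changed between settings. The change between days was 0.01 in siNcor1 (95% CI −0.50 to 0.52) and −0.04 in siOct4-labelled cells (95% CI −0.54 to 0.47).

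Versican and aggrecan, both binders of hyaluronan, fell together in siNcor1 and went opposite ways in siOct4-labelled cells and in the difference at day 6. *Vcan* (chromosome 13, 89655312 to 89742509, minus strand) encodes the large chondroitin sulfate proteoglycan of embryonic and fibroblast matrix. It stood at 8.64 and 8.79 log2-cpm in siNcor1 at day 3, 9.05 and 9.04 in siOct4-labelled cells at day 3, 7.82 and 8.20 in siNcor1 at day 6, and 7.06 and 7.72 in siOct4-labelled cells at day 6. The siOct4-labelled libraries were above the siNcor1 ones at day 3 and below them at day 6. *Vcan* fell by 1.66 in siOct4-labelled cells (SE 0.19, 3.15-fold, adjusted p = 3.4e-05) and fell by 0.70 in siNcor1 (SE 0.19, 1.63-fold, adjusted p = 0.0152). The difference was 0.33 at day 3 (95% CI −0.09 to 0.75, adjusted p = 0.648) and −0.62 at day 6 (SE 0.19, 1.54-fold lower, adjusted p = 0.0304), and its change was −0.95 (SE 0.27, adjusted p = 0.0306). The fall in siNcor1 was called under 16 of 20 alternatives and lost its call without replicate 1 (adjusted p = 0.0549) or replicate 2 (0.119) of siNcor1 at day 3 or replicate 1 of siNcor1 at day 6 (0.1504). The call of day 6 was the least stable of the 5 lower genes: without replicate 1 of siOct4 at day 6 the difference was −0.30 (adjusted p = 0.186), without replicate 2 of siNcor1 at day 6 it was −0.43 (adjusted p = 0.252), and it was called under 14 of 20 alternatives. The interaction of *Vcan* was called under 13 of 19 alternatives.

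*Acan* (chromosome 7, 79053483 to 79115099, plus strand) encodes the main proteoglycan of cartilage, which is also found in perineuronal nets. It was the only one of the 10 genes with a called difference towards higher values in siOct4-labelled cells. It stood at 1.61 and 1.71 log2-cpm in siNcor1 at day 3, 1.33 and 1.67 in siOct4-labelled cells at day 3, 0.54 and 0.20 in siNcor1 at day 6, and 2.81 and 2.48 in siOct4-labelled cells at day 6. In reads this was 47 and 54, 35 and 24, 16 and 12, and 65 and 64. The groups overlapped at day 3, and at day 6 they were the farthest apart of the 10 genes. *Acan* fell by 1.29 in siNcor1 (SE 0.28, 2.44-fold, adjusted p = 0.00429) and rose by 1.15 in siOct4-labelled cells (SE 0.28, 2.21-fold, adjusted p = 0.00440). The difference was −0.16 at day 3 (95% CI −0.77 to 0.44, adjusted p = 0.927) and 2.27 at day 6 (SE 0.28, 4.83-fold higher, adjusted p = 4.16e-04), and its change was 2.43 (SE 0.39, adjusted p = 0.00196). It was called at day 6 under all 19 alternatives that kept it among the tested genes.

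Cartilage markers were not called higher in siOct4-labelled cells at day 6, where *Acan* was. The 6 chondrocyte markers in the table summed to 21.8 and 21.3 CPM in siNcor1 at day 6 and to 18.3 and 12.8 CPM in siOct4-labelled cells. Of the 5 tested, 0 were higher and 1 was lower in siOct4-labelled cells at day 6, against 12.1% and 18.6% of all tested genes. At day 3 the chondrocyte markers summed to 32.7 and 31.1 CPM in siNcor1 and to 49.9 and 59.2 CPM in siOct4-labelled cells. There 0 of the 5 were called, against 0.375% of all tested genes higher and 0.692% lower. Between the days 2 of the 5 rose and 3 fell in siOct4-labelled cells, against 22.2% and 30.5% of all tested genes. Neural markers, 3 of 4 in the table, summed to 46.1 and 42.9 CPM in siNcor1 and 125 and 109 CPM in siOct4-labelled cells at day 6. There 2 of the 3 were called higher, against 12.1% of all tested genes, and the third differed by −0.82 (not called). At day 3, where *Acan* was not called, they summed to 56.7 and 72.0 CPM in siNcor1 and 87.1 and 88.35 CPM in siOct4-labelled cells. Of these markers 1 was called higher at day 3, against 0.375% of all tested genes. Their part in the difference of *Acan* was not tested. Over the 8 libraries the markers of blood cells, endothelium and skeletal muscle summed to 6.27 to 12.8, 16.4 to 44.3 and 15.3 to 115.7 CPM.

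Perlecan had the most reads of the 10 genes in every group, with 10800 to 38488 per library. *Hspg2* (chromosome 4, 137468769 to 137570630, plus strand) stood at 11.22 and 11.02 log2-cpm in siNcor1 at day 3, 11.20 and 11.60 in siOct4-labelled cells at day 3, 10.84 and 10.81 in siNcor1 at day 6, and 10.23 and 9.84 in siOct4-labelled cells at day 6. The groups overlapped at day 3 and were separate at day 6. *Hspg2* fell by 1.36 in siOct4-labelled cells (SE 0.20, 2.57-fold, adjusted p = 1.47e-04), while the change in siNcor1 was −0.29 (95% CI −0.72 to 0.14, adjusted p = 0.277). The difference was 0.28 at day 3 (95% CI −0.15 to 0.71, adjusted p = 0.741) and −0.79 at day 6 (SE 0.20, 1.73-fold lower, adjusted p = 0.0111), and its change was −1.07 (SE 0.28, adjusted p = 0.0203). The interaction was called under 15 of 19 alternatives and lost its call when any one of 4 libraries was left out, with adjusted p up to 0.112 without replicate 2 of siNcor1 at day 3. The call of day 6 was lost when either siNcor1 library of day 6 or replicate 2 of siOct4 at day 6 was left out, with adjusted p between 0.0520 and 0.0755.

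**Figure D3:**
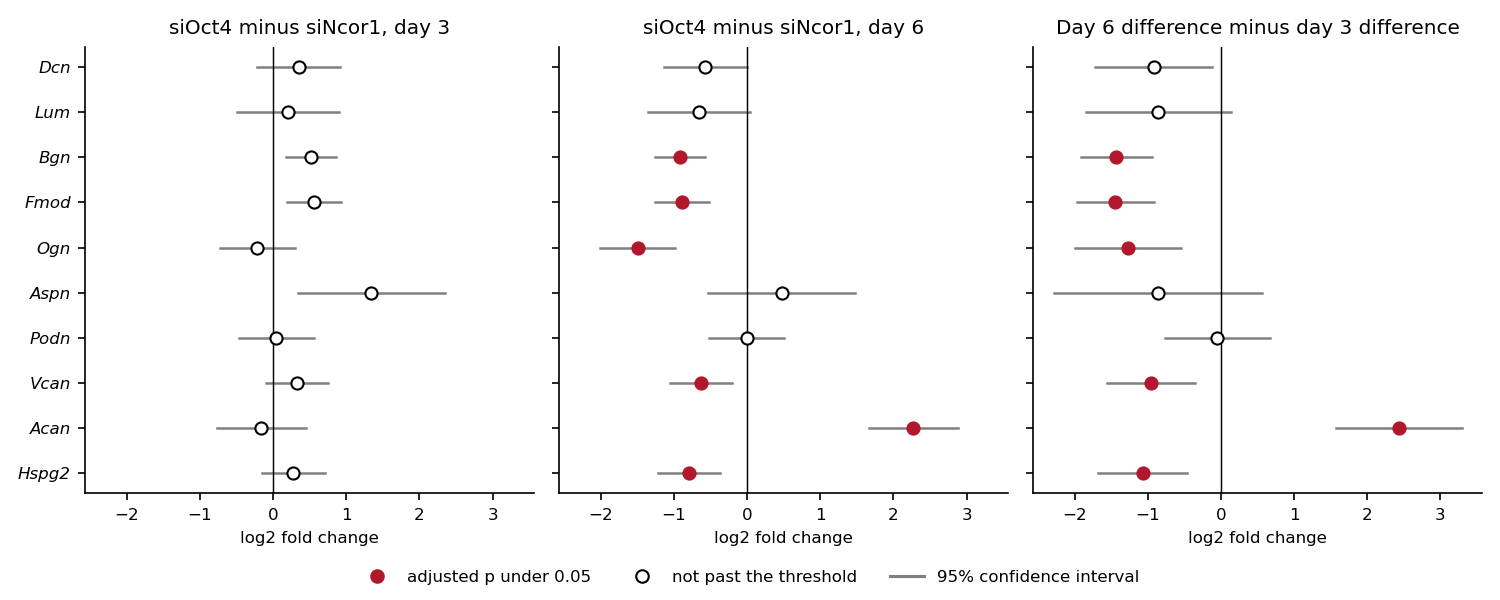
Difference between siOct4-labelled and siNcor1 cells (log2 fold change) at day 3 (left) and day 6 (middle) and the change of that difference (right), with bars for the 95% confidence interval and red points for an adjusted p under 0.05 in limma. No point is red at day 3, and at day 6 *Bgn*, *Fmod*, *Ogn*, *Vcan* and *Hspg2* lie below 0 and *Acan* lies at 2.27.

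**Figure D4:**
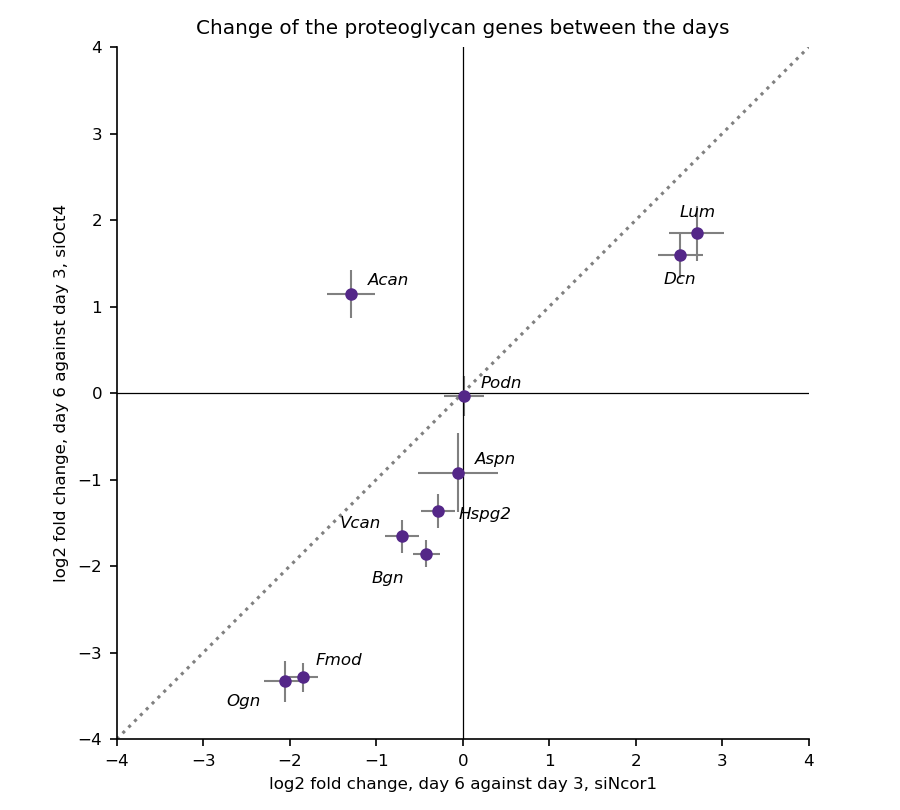
Change from day 3 to day 6 (log2 fold change) in siNcor1 on the horizontal axis and in siOct4-labelled cells on the vertical axis, with bars of 1 SE from limma and a dotted line of equal change. *Dcn* and *Lum* lie at the upper right, *Fmod* and *Ogn* at the lower left, *Podn* at the centre, and *Acan* has a change of −1.29 in siNcor1 and of 1.15 in siOct4-labelled cells.

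Some of these genes share exonic positions with other genes, and the strand setting of the read counting is not given in the sources used here. *Cenpp*, a kinetochore gene on the opposite strand, spans exons of *Ogn* and *Aspn*. It had 23 to 89 reads per library and rose between the days by 0.72 in siNcor1 (adjusted p = 0.0396) and rose by 1.62 in siOct4-labelled cells (adjusted p = 1.99e-04), against the direction of *Ogn*. In siOct4-labelled cells at day 6 it had 76 and 89 reads, against 12 and 23 for *Ogn* and 17 and 12 for *Aspn*. The levels of *Aspn*, and of *Ogn* at day 6, are therefore uncertain. The antisense gene *Gm4117* overlaps exons of *Vcan* and had 2 to 20 reads per library, against 1260 to 7837 for *Vcan*. *Scp2*, on the same strand as *Podn*, overlaps its exons and had 295 to 810 reads per library, against 38 to 85 for *Podn*, so the level of *Podn* is uncertain.

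Promoter windows of 300 bases around the RefSeq transcript start (GRCm38.p6) were given for 8 of the 10 genes, with a pair of windows for *Podn*, and none for *Dcn* or *Lum*. Windows are shown for the most abundant gene (*Hspg2*), for *Ogn*, which with *Fmod* had the deepest falls, and for *Acan*, higher in siOct4-labelled cells. They run 5′ to 3′ on the strand of the gene, with matches to the motifs named after them in capitals.
*Hspg2*, chr4:137468553-137468852, plus strand: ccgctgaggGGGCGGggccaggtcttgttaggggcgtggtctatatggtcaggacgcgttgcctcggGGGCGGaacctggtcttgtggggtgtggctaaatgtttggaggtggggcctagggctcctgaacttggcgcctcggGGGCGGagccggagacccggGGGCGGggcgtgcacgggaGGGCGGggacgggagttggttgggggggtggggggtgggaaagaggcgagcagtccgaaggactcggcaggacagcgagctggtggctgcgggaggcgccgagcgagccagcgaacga
*Ogn*, chr13:49607765-49608064, plus strand: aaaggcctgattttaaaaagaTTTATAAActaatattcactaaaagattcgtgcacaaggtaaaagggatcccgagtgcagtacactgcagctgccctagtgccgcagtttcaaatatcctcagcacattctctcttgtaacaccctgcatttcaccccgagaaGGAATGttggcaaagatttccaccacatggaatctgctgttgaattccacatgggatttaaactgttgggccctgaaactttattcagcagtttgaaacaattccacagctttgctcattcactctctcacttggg
*Acan*, chr7:79052976-79053275, plus strand: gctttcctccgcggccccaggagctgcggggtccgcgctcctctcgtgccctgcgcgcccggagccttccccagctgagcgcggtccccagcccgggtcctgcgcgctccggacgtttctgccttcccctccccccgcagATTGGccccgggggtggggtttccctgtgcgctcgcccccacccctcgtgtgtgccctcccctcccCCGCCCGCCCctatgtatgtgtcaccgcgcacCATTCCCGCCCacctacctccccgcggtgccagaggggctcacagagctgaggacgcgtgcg
The GC content was 70.3% for *Hspg2*, 42.3% for *Ogn* and 74.0% for *Acan*, against a median of 52.7% over 32851 promoters, and the windows held 27, 4 and 31 CpG dinucleotides against a median of 7. The motifs were searched on both strands. The GC box GGGCGG was found in 5 places of the *Hspg2* window and 3 of the *Acan* window, and 35.7% of all promoters hold it. The letters of the TATA box, TATAAA, were found in *Ogn* on both strands of one overlapping site, and 13.6% of all promoters hold them. These matches began at −229 and −227 from the transcript start. The TEAD motif CATTCC was found once in *Ogn* and once in *Acan*, where it overlaps a GC box, and 14.7% of all promoters hold it. The CCAAT box CCAAT was found in *Acan*, and 37.4% of all promoters hold it. Over all 9 windows, 5 held a GC box, 4 a CCAAT box, 2 the letters of a TATA box and 2 a TEAD motif. The TATA matches of *Aspn* began at −207 and −178. The AP-1 motif TGACTCA, the MYC E-box CACGTG and the octamer ATGCAAAT, held by 5.20%, 7.15% and 1.74% of all promoters, were found in 0 of the 9. These are matches of letters in short windows and not sites of binding.

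The other genes of proteoglycan biology were described by lists of their roles. Of 13 cell-surface proteoglycan genes, which encode syndecans, glypicans and related receptors, 8 were lower and 2 higher in siOct4-labelled cells at day 6, against 18.6% and 12.1% of all tested genes, with a median difference of −0.49. Among the lower ones were *Tgfbr3*, the betaglycan coreceptor of TGF-beta (−1.31, adjusted p = 1.09e-04), *Sdc4* (−1.03, adjusted p = 4.40e-04) and *Gpc4* (−0.98, adjusted p = 5.15e-04). At day 3 *Sdc3*, the only gene of the list called there, was 1.03 higher in siOct4-labelled cells (adjusted p = 0.00953), and its difference changed by −1.51 (adjusted p = 0.00119). Of 5 other small leucine-rich proteoglycan genes tested, 3 were lower at day 6 and 0 higher, *Tsku* (tsukushi) by −0.57 (adjusted p = 0.00723) beside *Prelp* and *Optc*. Of 6 other matrix proteoglycan and link protein genes, 1 was lower and 0 higher at day 6, with a median difference of −0.45. Between the days 4 of these 6 rose and 1 fell in each arm, against 13.8% of all tested genes rising and 20.9% falling in siNcor1 and 22.2% and 30.5% in siOct4-labelled cells. *Col18a1*, which encodes the heparan sulfate collagen of basement membranes, rose by 2.53 in siNcor1 (5.79-fold, adjusted p = 3.58e-07) and by 2.21 in siOct4-labelled cells (4.64-fold, adjusted p = 2.88e-07), and *Hapln1*, the cartilage link protein gene, rose by 2.07 in siNcor1 (adjusted p = 8.49e-04).

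The sugar chains are built by the genes of 4 further lists, read against 18.6% of all tested genes lower and 12.1% higher in siOct4-labelled cells at day 6. Of 14 genes for precursors and the linker region, 7 were lower and 1 higher. The lower ones included *Xylt1*, which starts the chain on the core protein (−0.97, adjusted p = 0.00128), and *Ugdh*, which makes the UDP-glucuronate precursor (−0.81, adjusted p = 0.00370). Of 15 chondroitin and dermatan sulfate genes, 7 were lower and 1 higher at day 6, among them the epimerase gene *Dse* (−1.14, adjusted p = 4.85e-04) and *Chpf2* (−0.64, adjusted p = 0.00212). Between the days 12 of these 15 fell in siOct4-labelled cells, against 30.5% of all tested genes, and 2 of 15 fell in siNcor1, against 20.9%. Of 4 keratan sulfate genes, 3 were lower at day 6: *Chst2* (−1.06, adjusted p = 9.99e-04), *B3gnt7* (−1.54, adjusted p = 0.00239) and *Chst1* (−1.14, adjusted p = 0.00352). *B3gnt7* was also lower at day 3 (−1.73, adjusted p = 0.0141). Of 18 heparan sulfate genes, 8 were lower and 0 higher at day 6, among them *Hs6st2* (−0.80, adjusted p = 8.57e-04), and *Extl1* had 45 and 46 reads in siNcor1 at day 6, 3 and 4 in siOct4-labelled cells at day 6 and 1 or 2 in every library of day 3. The medians of these 4 lists at day 6 were −0.43, −0.42, −1.10 and −0.39, in the order given, beside −0.03 over all tested genes.

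Hyaluronan is the partner of versican and aggrecan. Of 9 genes for its synthesis, binding and turnover, 3 were lower at day 6, against 18.6% of all tested genes, 0 were higher and 6 were not called. The lower ones were the depolymerising factor *Cemip* (−1.73, adjusted p = 2.10e-04), the synthase *Has2* (−1.67, adjusted p = 0.00643) and *Hyal1* (−0.88, adjusted p = 0.0289). *Has2* fell by 2.38 in siNcor1 and fell by 4.47 in siOct4-labelled cells between the days, and its 2 siOct4-labelled libraries of day 6 held 10 and 39 reads. All 6 tested genes of the ADAMTS proteases that cleave versican and aggrecan were called at day 6, 5 lower and 1 higher, against 18.6% and 12.1% of all tested genes. *Adamts1* differed by −1.16 (adjusted p = 1.77e-04) and *Adamts5* by −1.28 (adjusted p = 4.56e-04). *Adamts20* was higher by 1.67 (3.18-fold, adjusted p = 9.75e-04), with 90 reads in each siOct4-labelled library and 37 and 26 in the siNcor1 ones. No test of these lists against other genes was made.

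**Figure D5:**
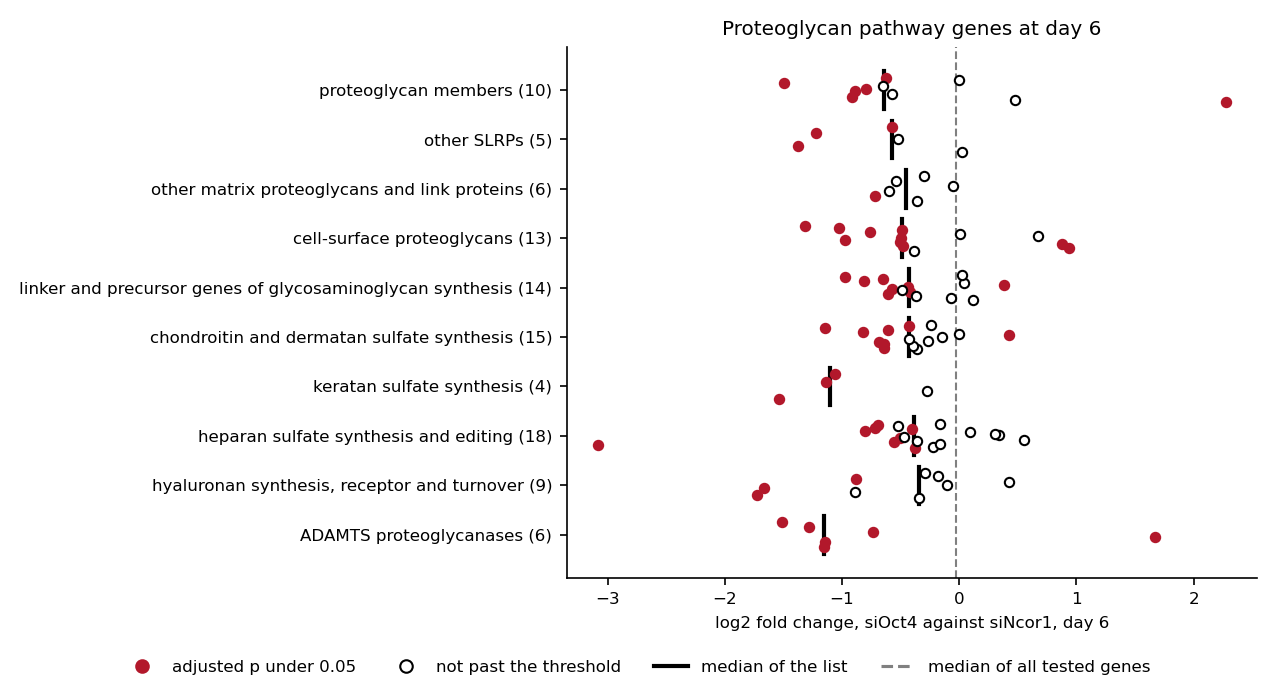
Difference between siOct4-labelled and siNcor1 cells at day 6 (log2 fold change) for each tested gene of the proteoglycan lists, with the number of tested genes in brackets, red points for an adjusted p under 0.05 in limma, a black bar for the median of each list and a dashed line for the median of all 13866 tested genes. The medians of the lists lie between −1.15 (ADAMTS proteases) and −0.34 (hyaluronan), and *Acan*, *Adamts20* and *Extl1* lie farthest from their lists.

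The genes most alike in pattern were found by Pearson's r of log2-cpm over the 8 libraries, which are 4 groups of 2, among 13866 tested genes. For *Dcn* they were *Mmp3* (r = 0.993), *Sdf2* and *Lum* (both 0.990), and for *Lum* they were *Ednrb* (0.991), *Mmp3* and *Dcn* (both 0.990). For *Bgn* they were *Ehd2*, *Mical2* and *Jph2* (0.995 to 0.996), and for *Hspg2* *Dctn1*, *Mtor* and *Dnmbp* (each 0.995). For *Fmod* they were *Tnfaip3* and *Ly75* (both 0.999), and for *Ogn* *Gtf2i*, *Adamts5* and *Ddx6* (each 0.997). For *Vcan* they were *Galnt14* (0.997), *Map3k7* (0.994) and *Dnajc3* (0.992), and for *Acan* *Hecw1* (0.989), *Tbrg4* (0.982) and *D10Wsu102e* (0.979). *Aspn* and *Podn*, the members without a call, had lower best values, 0.949 with *Plxna3* and 0.942 with *Syt17*. Among the 10 genes themselves *Dcn* and *Lum* were the closest pair (0.990), and *Bgn* was closer to *Hspg2* (0.956) and *Fmod* (0.953) than to *Dcn* (−0.66), a member of the same class.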

How the data were processed

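RNA-seq was performed in 8 libraries, 2 biological replicates in each of 4 groups. The submitters' processing notes name STAR 2.5.2b, edgeR 3.20.9 and the builds mm10 and GRCm38, and the deposited values are log2-cpm computed by the authors with edgeR. The tool, annotation and strand setting of the read counting are not given in the sources used here. The deposited table holds no columns of comparisons. Removing the constant added to the deposited values gave whole reads for 100% of values within 0.1 read, with 7735742 to 16445192 reads on genes per library. Intervals and floors from reads cover counting error only, and the precision of a group rests on 2 libraries.

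Because the values are log2-cpm, they were tested with limma 3.58.1 in R 4.3.3 (linear model of the 4 groups, eBayes with the variance allowed to follow expression) over the 13866 genes averaging 1 CPM or more, with Benjamini-Hochberg adjustment over all of them at a threshold of 0.05. The knockdown comparison at day 6 was checked on simulated reads with the same dispersion in every gene and group, unlike the data. The other comparisons were not checked in this way. The contrasts were knockdown at each day, day within each knockdown, and their interaction. The 10 genes were picked as a family by symbol, with no rule on values, but they, the lists and the tests were chosen with earlier results of these data known. By rule, the text names all 10 members, up to 3 called genes of each list with the smallest p at day 6 and up to 2 in each other comparison, the 3 genes most alike, neighbouring genes of the family, and the targeted genes. One gene that this rule names is not reported here. Genes that overlap exons of a member were named after the annotation was searched. Gene coordinates and exon lengths came from GENCODE M21 (GRCm38), to which 18969 of 18990 identifiers were matched, and promoters from RefSeq (GRCm38.p6).

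Deviations from the group means correlated between −0.04 and 0.281 over pairs of groups for libraries with the same replicate number, and the numbers were not treated as pairs. The highest value was between siNcor1 and siOct4 at day 6, and this range does not settle whether the replicates were paired. With a replicate block, 4698 genes were called at day 6, against 4251 without it. Alternatives were 4 other scalings, 2 other filters, pseudocounts of 0.1 and 1 CPM, no variance trend, voom on the recovered reads, a replicate block, fits restricted to the compared groups, and leaving out each of the 8 libraries.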

Additional observations from a re-analysis of the deposited data

Results flagged for a closer look

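For 6 of the 10 genes the difference between the siOct4-labelled and siNcor1 libraries was not the same at day 3 and day 6 by the interaction term in limma. The change of the difference on the log2 scale was −1.433 for *Bgn*, −0.9532 for *Vcan*, −1.443 for *Fmod*, −1.275 for *Ogn*, −1.068 for *Hspg2* and 2.434 for *Acan*. The median over all tested genes was 0.01. Over all tested genes the change was called negative for 12.9% and positive for 7.77%. The calls of *Vcan*, *Ogn* and *Hspg2* were lost when some single libraries were left out, and the number of negative calls then fell to as few as 2. The summed fibroblast markers moved in the same direction as the 5 falling values, and their part in these changes was not tested. Single libraries far from their group were not looked for, because groups of 2 are too small for such a test.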

How the results depend on the processing

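Over the alternatives, 913 of 975 values of the 10 genes kept their direction and their side of the threshold, 27 lost a call, 12 gained one and 23 changed sign, all of the last among uncalled values. With a mean of at least 10 CPM, 0 members were called higher at day 6 and 0 in the interaction, because *Acan* was not tested there. Leaving out one library gave 3 to 6 members called lower at day 6 and 2 to 7 in the interaction. The sign of *Podn* turned at day 6 with median centring (0.036), quantile normalization (0.113) and totals without *Gm26917* (0.0136), in siNcor1 between days with quantile normalization (−0.205), in siOct4 between days with median centring (0.0356) and without *Gm26917* (0.0976), and in the interaction with quantile normalization (0.0013) and without *Gm26917* (0.0083). *Aspn* turned in siNcor1 between days without *Gm26917* (0.012). With one library left out, values ranged at day 3 from −0.19 to 0.60 for *Lum*, −0.33 to 0.0090 for *Acan* and −0.19 to 0.28 for *Podn*. *Podn* ranged from −0.054 to 0.046 at day 6, −0.22 to 0.25 in siNcor1 and −0.0975 to 0.0263 in siOct4 between days, and −0.28 to 0.18 in the interaction, and *Aspn* from −0.51 to 0.40 in siNcor1 between days. The causes of these turns were not tested. With the replicate block, *Lum* at day 6 (−0.65, adjusted p = 0.0476) and *Bgn* between days in siNcor1 (−0.42, adjusted p = 0.0459) were also called, and no other call of a member changed. *Vcan* lost its calls without the variance trend at day 6 (adjusted p = 0.0919), in siNcor1 between days (0.0605) and in the interaction (0.0961). Over all genes, 148 were called at day 3, 43 without the variance trend, 81 with at least 10 CPM and 3 to 375 with one library left out. The lowest counts with one library left out were 1398 of 4251 at day 6, 2360 of 4819 in siNcor1 between days and 1009 of 2867 in the interaction. Totals without *Gm26917* moved the median of all genes by 0.13 in siOct4 between days. Depth limits *Aspn* (9 to 30 reads), *Acan* (12 to 65) and *Ogn* at day 6 in siOct4.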
